A study of Homo sapiens with 9 samples.

Results

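The NRF2 antioxidant genes described here are 10 genes: the transcription factor gene NFE2L2, which encodes NRF2, its inhibitor KEAP1, and 8 genes known as NRF2 targets. They were taken by symbol from the deposited gene tables, and all 10 were found among 62666 gene rows. Their mRNA was sequenced in 9 poly(A) libraries, 3 from each of 3 human cell lines of the MCF10 lineage. MCF10A comes from breast epithelium and does not form tumours. MCF10AT1 was derived from it with activated HRAS, and MCF10Ca1a, from further along that lineage, grows as carcinoma in mice. The change from MCF10A to MCF10AT1 is called the first step below, and that from MCF10AT1 to MCF10Ca1a the second. All cells grew in DMEM/F12 with insulin (10 µg/mL), EGF (20 ng/mL), hydrocortisone (500 ng/mL), cholera toxin (100 ng/mL) and glutamine (2 mM). Horse serum was 2.5% for MCF10AT1 and 5% for the other lines, so the effects of serum and line cannot be told apart in a comparison with MCF10AT1. Each stage is represented by 1 line. The labels do not say that the replicates were separate cultures, so the p-values measure the spread between these libraries, which may be technical.

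NRF2 is a transcription factor that answers oxidative and electrophilic stress. In unstressed cells KEAP1, an adaptor of a CUL3 and RBX1 ubiquitin ligase, binds NRF2 and directs it to degradation. When reactive compounds modify KEAP1, NRF2 accumulates, pairs with a small MAF protein and binds antioxidant response elements, while BACH1 competes for the same sites. Its targets supply glutathione, reduce thioredoxin and detoxify quinones, carbonyls and heme. Much of this control acts on the NRF2 protein, which mRNA levels do not measure.

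Library totals, in units of 1e6 counts, ranged from 64.2 to 69.5 for MCF10A, from 62.9 to 68.1 for MCF10AT1 and from 32.9 to 35.2 for MCF10Ca1a. Thinning every library to the smallest total changed no call of the 10 genes. No replicate pair held identical values, and MCF10A replicates 1 and 3 were the pair furthest apart, at 74.9 in chi-square over degrees of freedom, where the other pairs had 2.51 to 32.2. All 8 epithelial markers examined (such as KRT5, KRT17 and EPCAM) were at 1 TPM (transcripts per 1e6, a level corrected for transcript length) or more in each line. Of 10 markers of other cell types, 2, 2 and 3 reached 1 TPM in MCF10A, MCF10AT1 and MCF10Ca1a, and their summed level was 11.6 to 17.3, 4.38 to 5.03 and 47.8 to 54.7 TPM. Most of that sum came from CD68 (10.8, 2.66 and 31.1 TPM), listed as a leukocyte marker, and, in MCF10Ca1a, PECAM1 (18.7 TPM), listed as an endothelial marker. Markers listed for the same cell type differed: the leukocyte marker PTPRC stayed at or below 0.0377 TPM and CD3E was at 0 in all libraries. The endothelial marker VWF stayed at or below 0.00806 TPM. Fibroblast, mural and adipocyte markers were part of the sum and are not listed singly here. In these bulk libraries, fewer cells expressing a gene and less RNA of that gene per cell cannot be told apart.

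The core of the antioxidant response element, the DNA sequence NRF2 binds, was searched as TGACNNNGC on both strands in RefSeq promoter windows (GRCh38.p14) of 300 bases, 250 before and 50 after an annotated start. The table held windows for 8 of the 10 genes, and 3 of these, KEAP1, GCLM and TXNRD1, had a match. The stretches are shown because they show which promoter windows of the family carry these letters. Each is printed 5′ to 3′ on the strand of its gene with the match in capitals. Capitals beginning with GC are the core on the opposite strand.
KEAP1, chr19:10502811-10502831, minus strand: ttattgTGACACGGCgggcgc
KEAP1, chr19:10502788-10502808, minus strand: ggctctGCTTAGTCAtggtga
GCLM, chr1:93909450-93909470, minus strand: atttctGCTTAGTCAttgtct
TXNRD1 window 1, chr12:104215674-104215694, plus strand: gggctaTGACTTCGCtgttgt
TXNRD1 window 1, chr12:104215765-104215785, plus strand: ccttcgGCTCCGTCAgttccc
TXNRD1 window 2, chr12:104286924-104286944, plus strand: atttctGCTTTGTCAttctga
The 9 bases in capitals were the same in GCLM and in the second KEAP1 stretch. The windows of NFE2L2, NQO1, GCLC, SRXN1 and AKR1C1 held no match, which says only that these letters were not in those 300 bases. Of the 11 windows of the 8 genes, 4 held at least 1 match, beside 13.3% of 35116 windows over all genes, and the 3 of 8 genes stand beside 16.1% of genes. A match is a description of the sequence, not a measured binding site.

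Between MCF10A and MCF10AT1 the NRF2 genes moved in both directions and by less than 2-fold. In edgeR's quasi-likelihood test, 7 of 10 differed, where 61.6% of all genes did. A gene was called at an adjusted p under 0.05 (Benjamini-Hochberg, over the 17910 genes tested). HMOX1, TXNRD1 and AKR1C1 were higher in MCF10AT1 (3 genes, against 29.8% of all genes), and KEAP1, NQO1, SRXN1 and SLC7A11 were lower (4 genes, against 31.8%). The replicates of these 7 genes did not overlap between the lines, as in 65.4% of all genes. None of the 7 changed by 2-fold or more, where 18% of all genes were called with such a change. The median log2 change of the 10 genes was -0.04, beside -0.00 over all genes.

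Most of the family was higher in MCF10Ca1a than in both other lines. Being called, or being without overlap, was common among all genes in these comparisons. Against MCF10AT1, all 10 genes differed, where 78.4% of all genes did. Of these, 8 were higher (38% of all genes) and KEAP1 and GCLC were lower (40.3%), with a median log2 change of 0.87 beside -0.04 over all genes. Against MCF10A, all 10 differed too (80.9% of all genes), with the same split of 8 higher (39%) and 2 lower (41.9%) and a median of 0.89 beside -0.05. In both comparisons the replicates of all 10 genes did not overlap (81.9% and 81.5% of all genes). A change of 2-fold or more was found for 4 genes against MCF10AT1 (HMOX1, SRXN1, SLC7A11 and AKR1C1), where 37.7% of all genes had one, and for 6 against MCF10A (also KEAP1 and TXNRD1), where 42.9% had one. The 3 comparisons share libraries, so they are not independent of each other.

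**Figure D1:**
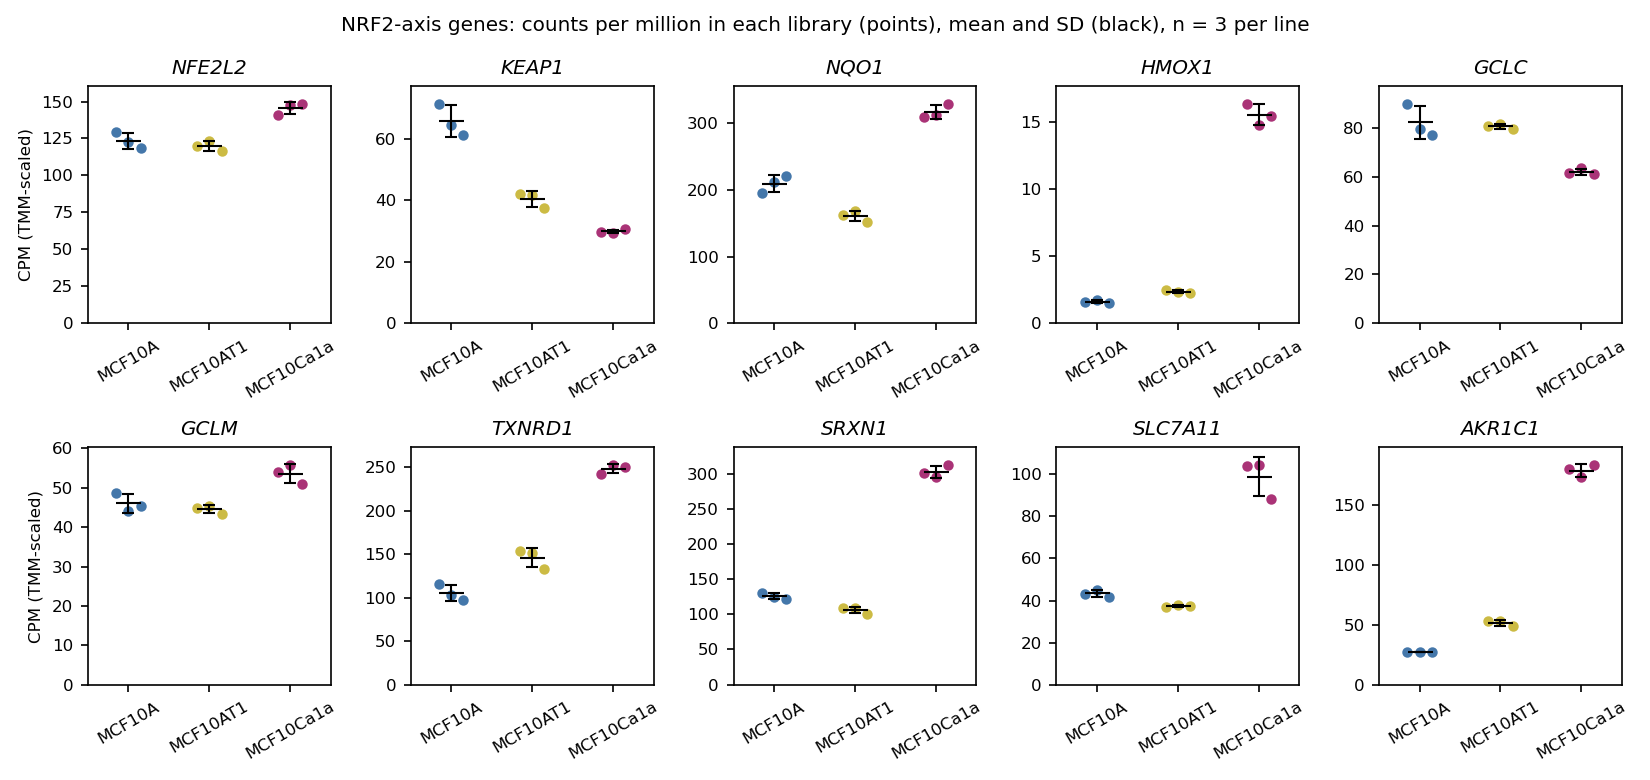
Level of each of the 10 NRF2-axis genes, as CPM (counts per 1e6 of the TMM-scaled total, linear axes from 0), in the 3 libraries of MCF10A (blue), MCF10AT1 (yellow) and MCF10Ca1a (purple). Black marks are the mean and SD (n = 3). The MCF10Ca1a libraries are the highest for 8 genes and the lowest for KEAP1 and GCLC, without overlap with the other lines.

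NFE2L2 (chr2:177227595-177392697, minus strand, GRCh38), the gene of NRF2 itself, changed little. It was at 129, 123 and 118 CPM in the 3 MCF10A libraries, at 119.6, 123 and 116 in MCF10AT1 and at 141, 147 and 149 in MCF10Ca1a. The MCF10A and MCF10AT1 libraries overlapped, and every MCF10Ca1a library was above all of them. Its log2 change was -0.04 ± 0.05 (SE) from MCF10A to MCF10AT1 (edgeR adjusted p = 0.480). It was 0.28 ± 0.05 in MCF10Ca1a against MCF10AT1 (edgeR adjusted p = 1.9e-04), a 1.22-fold difference, and 0.24 ± 0.05 against MCF10A (edgeR adjusted p = 7.1e-04). The gene overlaps AGPS on the opposite strand and AC019080.1 on the same strand, the latter with 205 to 371 counts per library, and the sources used here do not say whether counting used the strand. On log2(TPM + 1) the difference between MCF10A and MCF10AT1 was called (-0.18, limma adjusted p = 0.0466), with -0.08 left relative to the median of all genes.

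KEAP1 (chr19:10486120-10503741, minus strand), the inhibitor, fell at both steps. It was at 71.5, 64.5 and 61.3 CPM in MCF10A, at 42.0, 41.9 and 37.4 in MCF10AT1 and at 29.5, 29.5 and 30.6 in MCF10Ca1a. The 3 lines formed 3 levels without overlap, with MCF10A highest. The fitted change on the log2 scale was -0.70 ± 0.06 (SE) from MCF10A to MCF10AT1 (edgeR adjusted p = 4.6e-07) and -0.44 ± 0.07 from MCF10AT1 to MCF10Ca1a (edgeR adjusted p = 4.0e-05). From MCF10A to MCF10Ca1a it was -1.14 ± 0.07 (edgeR adjusted p = 1.4e-09), so the level in MCF10Ca1a was 2.20-fold lower. On the TPM scale the step from MCF10AT1 to MCF10Ca1a did not pass. There log2(TPM + 1) differed by -0.13 (limma adjusted p = 0.277), while the median of all genes moved by 0.20 on that scale, so the change relative to that median was -0.33.

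The transcripts that made up the KEAP1 signal differed between the lines. KEAP1-201 and KEAP1-202 in GENCODE 29 have the same coding length of 1872 bases and differ in where they begin, at base 10503741 and base 10502896 of chromosome 19. The KEAP1 window with the 2 response element matches covers the start of KEAP1-202 but was placed on another annotated start, base 10502771. On this minus-strand gene both matches lie downstream of the start of KEAP1-202, not before it. KEAP1-202 held 20.4, 22.05 and 23.9% of the TPM of the gene in the MCF10A libraries, 27.3, 24.6 and 31.7% in MCF10AT1 and 87.2, 76.7 and 69.6% in MCF10Ca1a. The MCF10Ca1a libraries were all far above the rest. In absolute terms KEAP1-202 was at 7.21 ± 0.587 TPM (SD, n = 3) in MCF10A, 4.98 ± 0.276 in MCF10AT1 and 12.7 ± 0.849 in MCF10Ca1a. It was highest in the line where the gene as a whole was lowest in CPM. In TPM the whole gene was at 18.0 ± 1.47 in MCF10AT1 and 16.4 ± 1.04 in MCF10Ca1a, with overlapping libraries. The level of KEAP1-202 itself was not tested. The log2 ratio of KEAP1-202 to the rest of the gene rose by 4.33 ± 0.59 (SE) against MCF10AT1 (limma adjusted p = 0.0032) and by 4.77 ± 0.59 against MCF10A (limma adjusted p = 0.0015). It was called in each of the 12 alternatives, but its size moved: without MCF10Ca1a replicate 1 the rises were 3.55 and 3.997, and on transcript TPM 3.22 and 3.66.

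KEAP1-201, named here after its values were seen, went the other way. It had 3339, 3014 and 2912 estimated counts in the MCF10A libraries, 1864, 1903 and 1420 in those of MCF10AT1 and 0, 123 and 115 in those of MCF10Ca1a, and its share of the gene went from 63.1% ± 3.62 (SD, n = 3) and 58.6% ± 2.87 to 6.76% ± 5.99. The value of 0 in MCF10Ca1a replicate 1 is an estimate from shared reads, and it widened the error of the test. The share was called lower against MCF10A (log2 ratio -6.94 ± 1.99, limma adjusted p = 0.0495) and was not called against MCF10AT1 (-6.57 ± 1.99, limma adjusted p = 0.0700). The second difference was called in 3 of 12 alternatives, among them without that library (-3.87, limma adjusted p = 1.3e-04), while 7 of the 12 alternatives lost the first call, with adjusted p-values from 0.0743 to 0.118. The difference from MCF10A was -4.24, -8.35 and -8.23 without MCF10Ca1a replicates 1, 2 and 3, respectively, each of them called. The KEAP1 transcript with the smallest p was a minor form of 1044 bases with 11.3 to 52.4 estimated counts in the MCF10A and MCF10AT1 libraries and 0 in the 3 MCF10Ca1a libraries. Its difference from MCF10AT1 depended on the pseudocount, with -3.77 (limma adjusted p = 0.0014) at 0.5 and -0.80 (limma adjusted p = 0.124) at 5.

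Over the family, a transcript share changed in 2 of the 7 testable genes from MCF10A to MCF10AT1, where 11.7% of 10569 genes had such a change and 2.32% of 73450 transcripts were called. The counts were 5 of 7 in MCF10Ca1a against MCF10AT1 (51.7% of genes and 14.5% of transcripts) and 6 of 7 against MCF10A (59.6% and 18.9%). HMOX1, SRXN1 and SLC7A11 were not testable. The test needed at least 2 transcripts of a gene with a mean of 10 counts in some line and 10 counts left for the rest of the gene in every line, and these genes had 1 such transcript or none. NFE2L2 had none called in the fit of all libraries, with NFE2L2-201 at 78.8%, 79.9% and 76.6% of its TPM in the 3 lines. A pair of its minor transcripts, with mean shares of 1.73% or less in each line and 0 counts in some libraries, were called under some alternatives. One was called in MCF10Ca1a against MCF10A in 3 alternatives, among them without MCF10A replicate 1 (log2 ratio 7.83, limma adjusted p = 0.0016), and the other against MCF10AT1 without MCF10Ca1a replicate 3 (7.12, limma adjusted p = 8.2e-04). Read assignment between transcripts of a gene is itself estimated, and the replicates show that error only in part. Over all transcripts tested, the median change of the log2 ratio from MCF10A to MCF10Ca1a was -0.11 for the longest class (2000 bases or more) and 0.05 for the shortest. The part of transcript length in the changes of single genes was not tested.

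**Figure D2:**
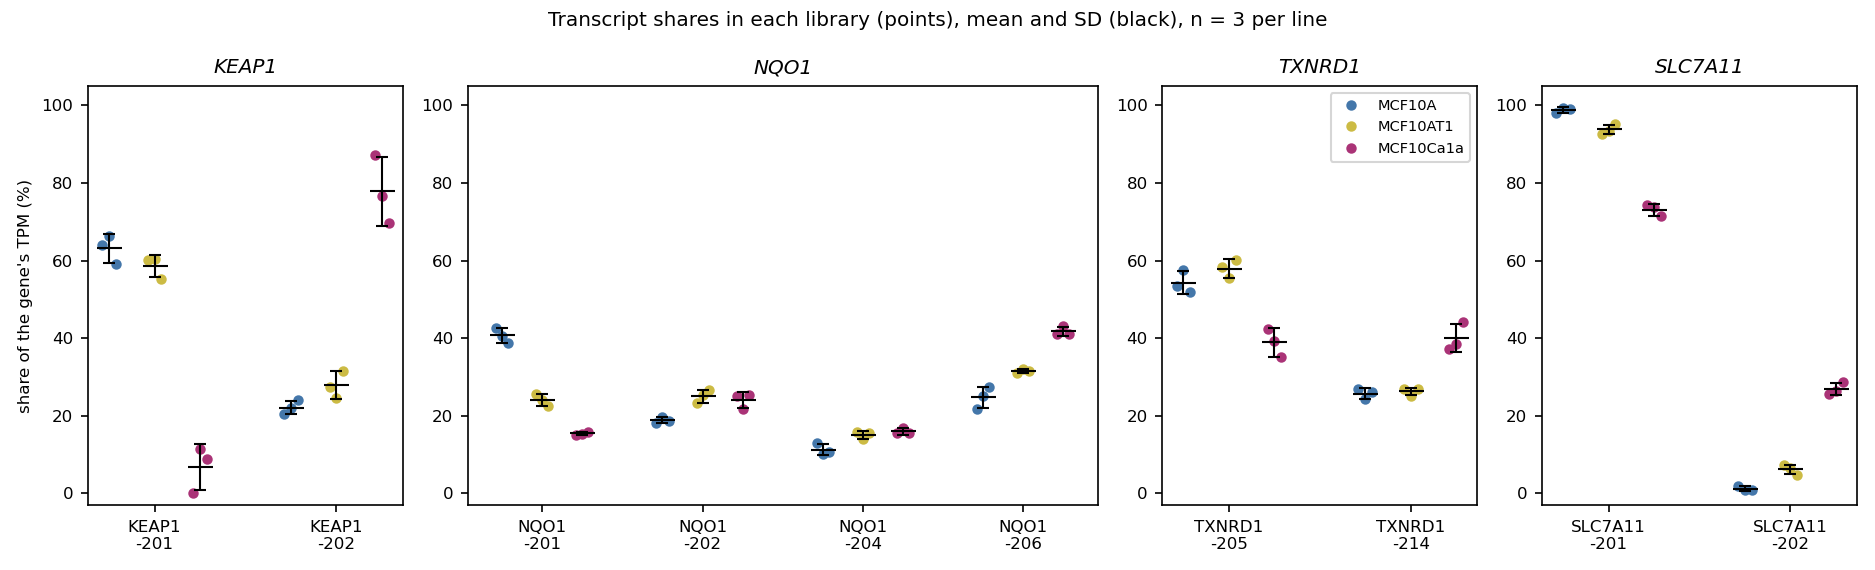
Share of the TPM of the gene (%) held by named transcripts of KEAP1, NQO1, TXNRD1 and SLC7A11 in each library (points: MCF10A blue, MCF10AT1 yellow, MCF10Ca1a purple), with mean and SD (n = 3). KEAP1-202 takes 69.6 to 87.2% in MCF10Ca1a and 31.7% or less elsewhere, and the share of NQO1-201 steps down from MCF10A to MCF10AT1 to MCF10Ca1a.

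NQO1 (chr16:69706996-69726951, minus strand), which reduces quinones by 2 electrons and is widely used as a readout of NRF2, was the most abundant of the 10 genes per length in every line. It was at 196, 211 and 221 CPM in MCF10A, at 162, 168 and 152 in MCF10AT1 and at 309.7, 312 and 329.7 in MCF10Ca1a. The lines did not overlap, and MCF10AT1 was the lowest. NQO1 fell by 0.38 ± 0.06 (SE) on the log2 scale from MCF10A to MCF10AT1 (edgeR adjusted p = 8.8e-05) and rose by 0.98 ± 0.06 from there to MCF10Ca1a (edgeR adjusted p = 3.0e-09). Against MCF10A the rise was 0.60 ± 0.06 (edgeR adjusted p = 4.7e-07), or 1.52-fold in CPM. The ratio of the mean TPM values, which correct for transcript length, was 2.14 for the same pair of lines.

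The longest transcript of NQO1 made up less of the gene at each step. NQO1-201 (2912 bases, 6 exons) held 42.7, 40.6 and 38.8% of NQO1 TPM in the MCF10A libraries, 25.5, 24.0 and 22.6% in those of MCF10AT1 and 15.2, 15.3 and 15.9% in MCF10Ca1a. No library of one line overlapped with another line. The level of NQO1-201 was 83.6 ± 2.38 TPM (SD, n = 3) in MCF10A, 40.2 ± 3.72 in MCF10AT1 and 68.1 ± 2.96 in MCF10Ca1a, so it was higher in MCF10Ca1a than in MCF10AT1 although its share was lower. Its log2 ratio to the rest fell by 1.11 ± 0.10 (SE) at the first step (limma adjusted p = 0.0023) and by 0.74 ± 0.10 at the second (limma adjusted p = 0.0037). NQO1-206 (892 bases) went from 24.7% ± 2.76 (SD, n = 3) to 31.5% ± 0.536 and 41.8% ± 1.24. Its ratio was called at both steps, with 0.69 ± 0.13 (limma adjusted p = 0.0460) and 0.77 ± 0.13 (limma adjusted p = 0.0089), and the first of these calls was lost in 10 of 12 alternatives.

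NQO1-202 and NQO1-204 lack the exon that is the fourth of NQO1-201, and NQO1-204 lacks the fifth as well. The fourth exon (chr16:69714964-69715077, minus strand, GRCh38) has 114 bases, all coding, and its loss keeps the reading frame and removes 38 codons. It is shown because it is a coding part that both short forms lack. These forms differ from NQO1-201 in more than this exon. They are 1105 and 924 bases long, against 2912, and begin and end at other bases.
NQO1 exon 4: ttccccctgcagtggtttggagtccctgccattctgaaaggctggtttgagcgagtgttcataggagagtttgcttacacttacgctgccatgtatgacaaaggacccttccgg
Annotated transcripts without this exon together held 31.9% ± 0.944 (SD, n = 3) of NQO1 TPM in MCF10A, 41.9% ± 1.76 in MCF10AT1 and 41.4% ± 1.23 in MCF10Ca1a. The MCF10A libraries (31.1 to 33.0%) lay below all libraries of the other lines (40.1 to 44.0%), which overlapped with each other. The sum itself was not tested. Of its members, the ratio of NQO1-202 rose by 0.77 ± 0.13 (SE) from MCF10A to MCF10AT1 (limma adjusted p = 0.0313) and by 0.89 ± 0.13 from MCF10A to MCF10Ca1a (limma adjusted p = 0.0034). The first of these calls was lost in 8 of 12 alternatives, and the second when transcript TPM replaced counts (0.44, limma adjusted p = 0.0622). NQO1-204 was called only against MCF10A in MCF10Ca1a (0.98 ± 0.14, limma adjusted p = 0.0032).

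HMOX1 (chr22:35380361-35394214, plus strand), the inducible heme oxygenase that breaks heme down to biliverdin, iron and carbon monoxide, had the largest edgeR fold of the 10 genes in both comparisons with MCF10Ca1a and the lowest mean level per length in every line. At the first step AKR1C1 changed more, and on log2(TPM + 1) from MCF10A to MCF10Ca1a the values of AKR1C1 (2.84) and HMOX1 (2.83) were close. The added 1 shrinks the change of HMOX1, at 1.29 TPM in MCF10A, more than that of AKR1C1. The ratios of mean TPM for that pair of lines were 7.38 for AKR1C1 and 11.9 for HMOX1. The counts of HMOX1 were 101, 112 and 104 (MCF10A), then 164, 153 and 142 (MCF10AT1) and then 587, 499 and 549 (MCF10Ca1a), the last being the line with the smallest library totals. In CPM these were 1.58, 1.73 and 1.49, then 2.46, 2.31 and 2.29, then 16.4, 14.8 and 15.5. The 3 lines did not overlap. The log2 change was 0.56 ± 0.10 (SE) at the first step (edgeR adjusted p = 3.1e-04), 2.73 ± 0.09 at the second (edgeR adjusted p = 5.5e-12) and 3.28 ± 0.09 from MCF10A to MCF10Ca1a (edgeR adjusted p = 8.9e-13), a 9.74-fold rise. On the TPM scale HMOX1 remained the lowest in every line, at 1.29 ± 0.0953 (SD, n = 3), 1.84 ± 0.161 and 15.3 ± 0.562 TPM. In MCF10Ca1a it overlapped with KEAP1 (16.4 ± 1.04 TPM). The transcript HMOX1-201 held 94.6% ± 9.36, 82.1% ± 22.3 and 70.0% ± 10.3 of HMOX1 TPM, with wide spread, and was not tested.

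AKR1C1 (chr10:4963253-4983283, plus strand), an aldo-keto reductase that acts on steroids and reactive carbonyls, rose at both steps. It was at 27.4, 27.5 and 27.5 CPM in MCF10A, at 53.3, 52.9 and 49.0 in MCF10AT1 and at 179.9, 173 and 183 in MCF10Ca1a. Each line was above the one before without overlap. Its log2 change was 0.91 ± 0.05 (SE) at the first step (edgeR adjusted p = 3.4e-09), 1.79 ± 0.05 at the second (edgeR adjusted p = 1.4e-12) and 2.70 ± 0.05 over both (edgeR adjusted p = 2.6e-14), or 6.50-fold. In TPM, AKR1C1 ranked 8 of the 10 genes in MCF10A, 5 in MCF10AT1 and 2 in MCF10Ca1a. The coding sequences of AKR1C1 and AKR1C2, of 969 bases each, were identical at 950 bases (98.0%), with an identical run of up to 186 bases, so reads may have been split between them. Summed counts of both genes rose by 0.66, 1.15 and 1.81 on the log2 scale in the same 3 comparisons, all called by edgeR. AKR1C2 alone rose by 0.51, 0.43 and 0.94, and AKR1C3 by 0.39, 0.93 and 1.32 (edgeR, all called). The share of AKR1C1-203 in AKR1C1 TPM was 52.2% ± 2.50 (SD, n = 3), 51.2% ± 0.664 and 53.0% ± 2.32 and was not called in any comparison. That of the long AKR1C1-202 (6705 bases) was 4.37% ± 0.299, 3.20% ± 0.268 and 2.05% ± 0.0778, and its ratio fell by 0.76 at the second step (limma adjusted p = 0.0079).

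The glutathione genes did not move together. GCLC (chr6:53497341-53616970, minus strand) encodes the catalytic subunit of glutamate-cysteine ligase, the first and rate-limiting enzyme of glutathione synthesis. It was at 90.0, 79.5 and 77.3 CPM in MCF10A, at 81.0, 81.6 and 79.5 in MCF10AT1 and at 61.4, 63.5 and 61.0 in MCF10Ca1a. The first pair of lines overlapped, and MCF10Ca1a lay below both. Among the 8 targets of the family, GCLC was the one that was lower in MCF10Ca1a, by a log2 change of -0.38 ± 0.06 (SE) against MCF10AT1 (edgeR adjusted p = 4.0e-05) and -0.41 ± 0.06 against MCF10A (edgeR adjusted p = 1.9e-05). On the TPM scale the change against MCF10AT1 did not pass (-0.08, limma adjusted p = 0.366, and -0.28 relative to the median of all genes). The change against MCF10A passed there with a filter on low values (-0.25, limma adjusted p = 0.0138) and not without one (limma adjusted p = 0.0763). GCLC-215, its main transcript, held 76.3% ± 4.07 (SD, n = 3), 76.7% ± 4.67 and 63.1% ± 5.51 of GCLC TPM. Its ratio fell by 1.13 at the second step (limma adjusted p = 0.0394) and by 1.01 over both (limma adjusted p = 0.0470), each lost in 7 of 12 alternatives. AL033397.1 overlaps GCLC on the same strand with 119 to 395 counts per library.

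GCLM (chr1:93885205-93909456, minus strand), the modifier subunit of the same ligase, rose slightly. It was at 48.6, 44.1 and 45.3 CPM in MCF10A, at 45.0, 45.4 and 43.4 in MCF10AT1 and at 53.9, 55.8 and 50.9 in MCF10Ca1a. The lowest MCF10Ca1a library was above the highest of the other lines. The fitted change on the log2 scale was -0.05 ± 0.05 (SE) between MCF10A and MCF10AT1 (edgeR adjusted p = 0.481), with the opposite sign (0.06) in the length-scaled counts. It was 0.26 ± 0.05 in MCF10Ca1a against MCF10AT1 (edgeR adjusted p = 5.0e-04) and 0.22 ± 0.05 against MCF10A (edgeR adjusted p = 0.0020). The share of GCLM-201 in GCLM TPM went from 73.6% ± 2.12 (SD, n = 3) in MCF10A to 60.0% ± 1.60 in MCF10AT1 and 57.9% ± 3.34 in MCF10Ca1a. This was called at the first step (limma adjusted p = 0.0447, lost in 8 of 12 alternatives) and over both (limma adjusted p = 0.0038).

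SLC7A11 (chr4:138164097-138242349, minus strand), the cystine importer xCT that feeds glutathione synthesis, followed the shape of NQO1. It was at 43.3, 45.1 and 41.7 CPM in MCF10A, at 36.9, 37.9 and 37.2 in MCF10AT1 and at 104, 104 and 88.1 in MCF10Ca1a. The lines did not overlap. The log2 change was -0.22 ± 0.06 (SE) at the first step (edgeR adjusted p = 0.0108), and without MCF10A replicate 2 it missed the threshold (-0.19, edgeR adjusted p = 0.0504). At the second step it was 1.40 ± 0.07 (edgeR adjusted p = 1.6e-10), or 2.65-fold, and against MCF10A it was 1.19 ± 0.06 (edgeR adjusted p = 6.2e-10). The ratio of mean TPM values was larger than that of CPM, at 4.04 against MCF10AT1.

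The SLC7A11 message also held a short form. SLC7A11-202, 797 bases long and annotated as a target of nonsense-mediated decay, lacks the exons that are the seventh and ninth of SLC7A11-201. The seventh (chr4:138185121-138185244, minus strand, GRCh38) has 124 bases, not a multiple of 3, and is shown because its absence shifts the reading frame.
SLC7A11 exon 7: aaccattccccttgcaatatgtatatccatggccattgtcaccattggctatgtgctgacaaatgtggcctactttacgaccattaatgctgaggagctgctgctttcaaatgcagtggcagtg
The estimated counts of SLC7A11-202 were 4.604, 1.95 and 2.11 in the MCF10A libraries, 16.1, 14.5 and 9.48 in those of MCF10AT1 and 106, 103 and 107 in MCF10Ca1a. As a share of SLC7A11 TPM, which weights a short transcript up, these were 1.18% ± 0.650 (SD, n = 3), 6.18% ± 1.25 and 26.9% ± 1.53. The lines did not overlap. The share was not tested. SLC7A11-202 is the whole rest of the gene for SLC7A11-201 and was under 10 counts in MCF10A, so only 1 transcript qualified where the test needed 2. In counts SLC7A11-201 held nearly all of the gene (3016 to 3613 in MCF10Ca1a).

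TXNRD1 (chr12:104215779-104350305, plus strand), the cytosolic thioredoxin reductase that keeps thioredoxin reduced with NADPH, rose at both steps. It was at 116, 103 and 97.4 CPM in MCF10A, at 153, 152 and 134 in MCF10AT1 and at 243, 253 and 249.99 in MCF10Ca1a. The lines formed 3 rising levels without overlap. Its log2 change was 0.47 ± 0.07 (SE) at the first step (edgeR adjusted p = 5.6e-05), 0.76 ± 0.07 at the second (edgeR adjusted p = 2.2e-07) and 1.24 ± 0.07 over both (edgeR adjusted p = 1.15e-09), or 2.35-fold. The first step passed on log2(TPM + 1) with a filter on low values (0.31, limma adjusted p = 0.0233) and not without one (limma adjusted p = 0.188). The pseudogene RPL18AP3 lies inside the gene on the same strand with 331 to 1080 counts per library.

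Both main TXNRD1 transcripts begin near the second of its promoter windows, at bases 104286682 and 104286881 of chromosome 12. TXNRD1-214, with the longer coding sequence (1653 against 1497 bases), went from 25.7% ± 1.35 (SD, n = 3) and 26.3% ± 0.999 of TXNRD1 TPM in MCF10A and MCF10AT1 to 40.0% ± 3.62 in MCF10Ca1a. TXNRD1-205 went from 54.3% ± 2.86 and 57.9% ± 2.40 to 38.9% ± 3.70. Against MCF10AT1 the log2 ratio rose by 1.11 ± 0.15 (SE) for TXNRD1-214 (limma adjusted p = 0.0028) and fell by 1.06 ± 0.15 for TXNRD1-205 (limma adjusted p = 0.0039), and both were called in every alternative run. Transcripts that begin at the first promoter window held 2.41% ± 0.491 (SD, n = 3), 2.14% ± 0.701 and 1.15% ± 0.985 in the 3 lines, with overlapping libraries.

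SRXN1 (chr20:646615-653370, minus strand), sulfiredoxin, repairs over-oxidised peroxiredoxins. It was at 130.4, 125 and 122 CPM in MCF10A, at 109, 108 and 101 in MCF10AT1 and at 301, 296 and 312 in MCF10Ca1a. The lines did not overlap, and MCF10AT1 was again the lowest. The fitted change on the log2 scale was -0.25 ± 0.05 (SE) at the first step (edgeR adjusted p = 0.0011), 1.51 ± 0.05 at the second (edgeR adjusted p = 1.0e-11), or 2.85-fold, and 1.27 ± 0.05 against MCF10A (edgeR adjusted p = 3.8e-11). The table holds 1 transcript of this gene.

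**Figure D3:**
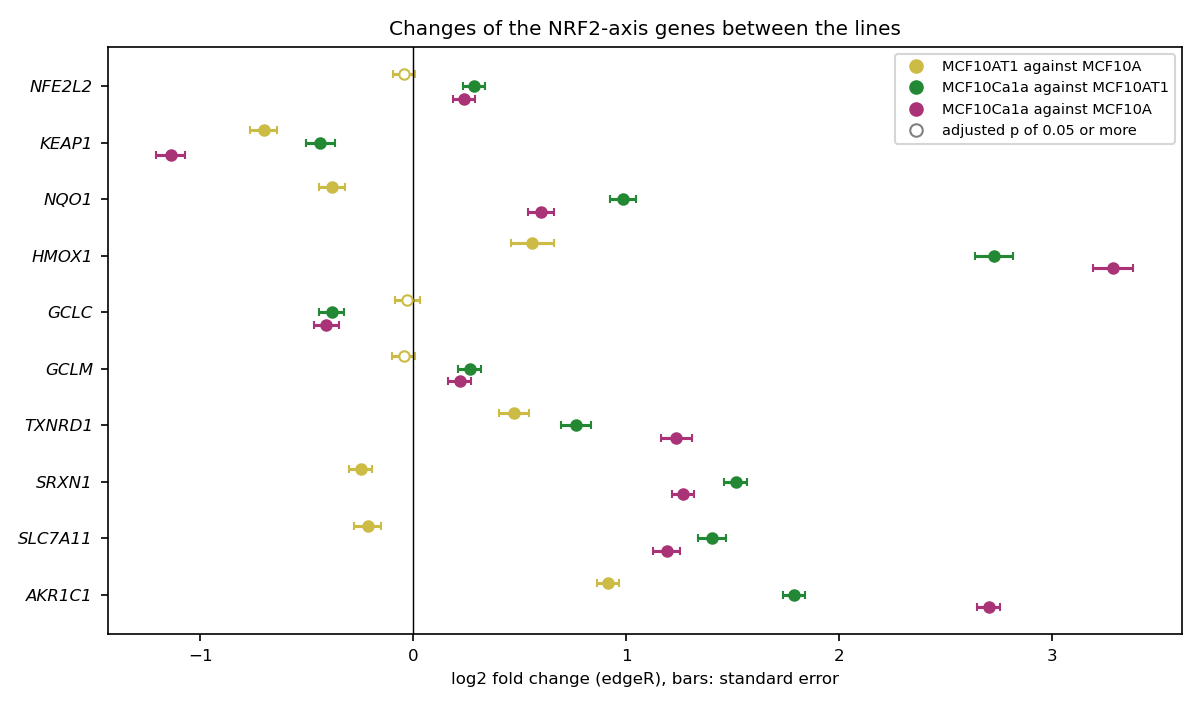
Log2 fold change of each NRF2-axis gene by edgeR in MCF10AT1 against MCF10A (yellow), MCF10Ca1a against MCF10AT1 (green) and MCF10Ca1a against MCF10A (purple), with the standard error as bars. Open points have an adjusted p of 0.05 or more (NFE2L2, GCLC and GCLM in MCF10AT1 against MCF10A). KEAP1 lies left of 0 in all 3 comparisons, and HMOX1 and AKR1C1 reach furthest right, at 3.28 and 2.70.

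Within the family, patterns over the 9 libraries were compared as the root mean square distance of log2 CPM centred on each gene's mean, given here as a description. NFE2L2 and GCLM were the closest pair (0.0472), followed by SRXN1 and SLC7A11 (0.106), and KEAP1 and HMOX1 were the furthest apart (1.71). Over 11997 other genes with at least 100 counts on average, those closest to NFE2L2 were BCL2L13 (0.0239), CCDC43 (0.0310) and MTMR14 (0.0323). Those closest to KEAP1 were MISP (0.0382), RBM8A (0.0421) and TMED1 (0.0574), and those closest to HMOX1, the gene with the widest spread of line means (2.94 log2 units), were TGM4 (0.0872), TRIM16L (0.102) and ACSL5 (0.104).

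Levels can be compared between genes only per length. In TPM the order in MCF10A was NQO1 (206 ± 3.82, SD, n = 3), NFE2L2 (86.6 ± 8.50), SRXN1 (68.3 ± 6.37), TXNRD1 (46.2 ± 6.98), GCLC (41.3 ± 5.00), KEAP1 (32.8 ± 5.09), GCLM (31.7 ± 3.70), AKR1C1 (27.4 ± 1.34), SLC7A11 (11.01 ± 0.876) and HMOX1. The neighbours from TXNRD1 to GCLM overlapped in their replicates, and the other neighbours did not. In MCF10AT1 NQO1 was at 167 ± 7.58 TPM and NFE2L2 at 76.1 ± 3.22, and TXNRD1, SRXN1 and AKR1C1 followed with overlapping replicates (57.2 ± 5.55, 52.1 ± 2.78 and 49.7 ± 3.06). In MCF10Ca1a NQO1 (441 ± 8.87), AKR1C1 (202 ± 4.42), SRXN1 (178 ± 3.12) and TXNRD1 (122 ± 1.84) were above NFE2L2 (109 ± 2.31) without overlap. Below these, GCLM was at 45.4 ± 0.591 TPM, and SLC7A11 (35.8 ± 2.49) overlapped with GCLC (34.5 ± 1.15).

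Of 16 genes that regulate NRF2 or its response elements, 6 were higher and 3 lower in MCF10AT1 than in MCF10A (edgeR, 29.8% and 31.8% of all genes). In MCF10Ca1a 13 were higher and 2 lower than in MCF10AT1 (38% and 40.3% of all genes), and 14 higher and 1 lower than in MCF10A (39% and 41.9%). The 9, 15 and 15 called stand beside 61.6%, 78.4% and 80.9% of all genes, so the count at the first step was not above the background. Their median log2 changes were 0.06, 0.79 and 0.94, beside -0.00, -0.04 and -0.05 over all genes. On log2(TPM + 1) without a filter, 5 in place of 9 were called at the first step. SQSTM1, the autophagy receptor p62 that binds KEAP1, went from 222 ± 13.7 CPM (SD, n = 3) and 155 ± 4.72 to 662 ± 14.7, a log2 change of 2.09 ± 0.06 (SE) at the second step (edgeR adjusted p = 1.4e-12). BACH1, the competing repressor, was at 43.9 ± 1.22, 41.8 ± 0.827 and 93.8 ± 4.88 CPM and rose by 1.16 in MCF10Ca1a against MCF10AT1. NFE2L3, a relative of NRF2, rose at both steps, by 0.996 and 2.37 (edgeR), to 72.6 ± 3.03 CPM. The related factor gene NFE2L1 fell by 0.43 and then rose by 1.38. Its first-step change was -0.28 without MCF10A replicate 1, and still called.

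The small MAF partners were higher in MCF10Ca1a than in MCF10A. MAFG rose 3.00-fold from MCF10A to MCF10Ca1a (log2 1.59 ± 0.05, SE, edgeR adjusted p = 2.3e-12), and MAFF and MAFK rose by 1.55 and 1.36. RBX1, the RING subunit of the ligase that carries KEAP1, fell from 80.9 ± 5.72 CPM (SD, n = 3) in MCF10AT1 to 24.5 ± 1.22 in MCF10Ca1a, by 1.72 ± 0.10 (SE) on the log2 scale (edgeR adjusted p = 2.4e-09). CUL3, the scaffold of the same ligase, rose by 0.31 at that step. ENC1, which is reported to lower NRF2 translation, rose by 0.61 at the first step and fell by 0.70 at the second, with a difference of -0.10 between MCF10Ca1a and MCF10A that was not called (edgeR adjusted p = 0.0743). BACH2, a relative of BACH1, rose by 0.68 at the first step.

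Of 37 further genes known as NRF2 targets, 35 were tested, and GSTM3 and NR0B1 had 0 counts in every library. In MCF10AT1 against MCF10A 14 were higher and 13 lower (29.8% and 31.8% of all genes), with a median of -0.02. In MCF10Ca1a 25 were higher and 7 lower against MCF10AT1 (38% and 40.3% of all genes, median 0.92), and 26 were higher and 7 lower against MCF10A (39% and 41.9%, median 0.90). GPX2, a glutathione peroxidase, had 9, 9 and 6 counts in the MCF10A libraries, 5, 2 and 8 in those of MCF10AT1 and 754, 730 and 879 in those of MCF10Ca1a, a log2 change of 8.15 ± 0.20 (SE) at the second step (edgeR adjusted p = 3.3e-13). OSGIN1, an oxidative stress gene, rose 16.0-fold there, from 1.51 ± 0.0497 to 24.1 ± 0.657 CPM (SD, n = 3, edgeR adjusted p = 2.2e-13).

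UGT1A6, a glucuronosyltransferase, rose from 0.961 ± 0.0827 CPM (SD, n = 3) in MCF10A to 7.69 ± 0.292 and 81.0 ± 3.56, and since UGT1A genes share their last exons its reads may belong in part to its neighbours. ABCG2, a drug efflux transporter, rose by 1.59 at the first step and 2.19 at the second (edgeR). Other targets fell: CBR3, a carbonyl reductase, went from 9.10 ± 0.259 CPM to 6.04 ± 0.528 and 0.639 ± 0.124, a log2 change of -3.83 ± 0.14 (SE) over both steps (edgeR adjusted p = 6.7e-12). GSTP1, a glutathione transferase, fell by 1.24 and EPHX1, an epoxide hydrolase, rose by 1.44 in MCF10Ca1a against MCF10AT1, after EPHX1 had fallen by 2.23 and GSTA4 by 2.44 from MCF10A to MCF10AT1. The heavy ferritin gene FTH1 fell by 0.20 and the light gene FTL rose by 2.48 at the second step. The last 2 were named after their values were seen.

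Of 24 antioxidant genes not chosen as NRF2 targets, 22 were tested, since SOD3 and GPX3 were at 0 to 2 counts. They split 6 higher and 8 lower in MCF10AT1 against MCF10A (median 0.00), near the 29.8% and 31.8% of all genes. In MCF10Ca1a they split 7 and 14 against MCF10AT1 (38% and 40.3% of all genes, median -0.53) and 5 and 14 against MCF10A (39% and 41.9%, median -0.49). So in MCF10Ca1a the median of this list was below 0 and those of the NRF2 lists above it, a difference between lists that was not tested. MSRA, a methionine sulfoxide reductase, fell by 2.53 and TXNRD2, the mitochondrial thioredoxin reductase, by 1.55 at the second step (edgeR), where TXNRD1 rose. SOD2, the mitochondrial superoxide dismutase, rose by 1.61. TXNIP, which inhibits thioredoxin rather than supporting it, rose from 123 ± 6.85 CPM (SD, n = 3) to 326 ± 14.2 and 1259 ± 9.64, by 3.35 ± 0.06 (SE) over both steps (edgeR adjusted p = 2.1e-14). GPX4, which reduces lipid peroxides, rose by 0.64 and then 0.86, and MSRB1 fell by 1.54 at the first step.

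**Figure D4:**
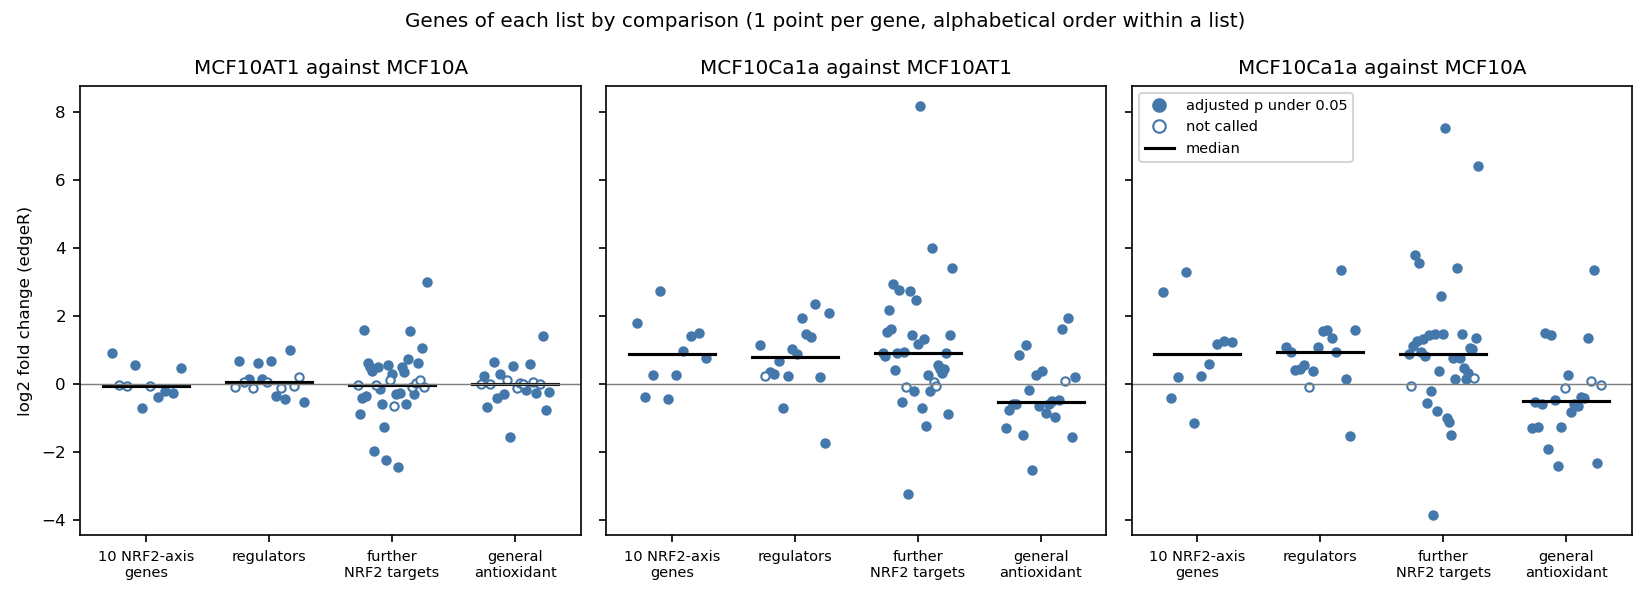
Log2 fold change (edgeR) of each tested gene in 4 lists, with 1 point per gene and the list median as a black bar, for the 3 comparisons. Filled points have an adjusted p under 0.05. In MCF10Ca1a the medians of the 10 NRF2-axis genes, the regulators and the further targets lie between 0.79 and 0.94, and that of the general antioxidant genes at -0.53 and -0.49.

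Promoter windows were available for 13 of the regulators, 27 of the further targets and 20 of the general antioxidant genes. At least 1 match to the response element core was found for 2 of the 13, 12 of the 27 and 0 of the 20, where 16.1% of all 27305 genes had one.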

How the data were processed

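Polyadenylated RNA of 3 cell lines was sequenced in 3 libraries each with a stranded kit, per the labels. The authors deposited estimated counts and TPM per gene and per transcript, and gene counts named length-scaled and scaled. Per the submitters' processing notes, Salmon and hg38 were used; roles, versions and the annotation are not given in the sources used here. Recent transcript identifiers in the tables are absent from GENCODE 29, from which positions and structures were taken by unversioned identifier.

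Deposited estimated counts were rounded. Genes were kept with filterByExpr by line (minimum count 10, total 15; 17910 of 62666). The test was edgeR 4.0.16's quasi-likelihood test in R 4.3.3, with TMM and all 9 libraries in 1 fit. Standard errors were derived from each log2 change and the F value of its test. Transcript shares were tested with limma 3.58.1 on the log2 ratio between a transcript and all others of the gene (0.5 added to both), for transcripts averaging at least 10 counts in at least 1 line, with at least 10 for the rest of the gene in every line, in genes with at least 2 such transcripts. All scripts for tests across genes were tested on simulated data.

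The 10 genes and the lists were chosen with earlier results of these data known. Named genes are the 10, up to 2 largest rises and 2 largest falls per list and comparison (adjusted p under 0.05, mean of at least 100 counts, no overlap), AKR1C2, AKR1C3, BACH1 and SQSTM1. MAFF, MAFK, CUL3, FTH1, FTL and transcripts other than the largest or the one with the smallest p were named after their values were seen. Alternatives were DESeq2 1.42.0 (size factors, Wald test), no filter, the other count tables, limma on log2(TPM + 1) and log2(TPM + 0.1), thinning, a replicate block, fits restricted to a single pair of lines, and omission of each library.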

Additional observations from a re-analysis of the deposited data

How the results depend on the processing

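The number of NRF2 genes called stayed within 1.5 times its value in all 60 alternative counts (20 settings, 3 comparisons), and 592 of 603 alternative log2 changes of these genes kept their side of the threshold. No called change turned its direction. From MCF10A to MCF10AT1, the uncalled changes of GCLC and GCLM took the opposite sign under some alternatives. On TPM with a filter, NFE2L2 was called from MCF10A to MCF10AT1 (-0.18, limma adjusted p = 0.0466), by -0.08 relative to the median of all genes, which moved by -0.10, 0.20 and 0.09 in the 3 comparisons on that scale. The other changes of call, for KEAP1, GCLC, TXNRD1 and SLC7A11, stand beside their results. For the other named genes, 1414 of 1439 alternative log2 changes kept their side of the threshold, 17 gained a call and 8 lost one. Of the regulators, 5 were called in MCF10AT1 against MCF10A on log2(TPM + 1) without a filter, in place of 9. With the replicate number as a block, 1 gene had a changed transcript share in MCF10AT1 against MCF10A in place of 2, and with each library left out in turn 1 to 2 had one. The block moved no other count of calls by over 1.5 times. The numbers do not pair the libraries by their deviations (r from -0.14 to 0.16 in 9 pairs, with 4 libraries closest to one of their own number). The cause of these differences was not tested. With 3 libraries per line and read assignment error not available, transcript shares of low counts are uncertain.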
